A study of Homo sapiens with 8 samples.

Results

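The HOX cluster genes are the protein-coding genes whose symbol is HOXA, HOXB, HOXC or HOXD followed by a number. The rule uses the symbol alone and picked 39 of the 58336 rows of the counts table, 11 in HOXA on chromosome 7, 10 in HOXB on chromosome 17, 9 in HOXC on chromosome 12 and 9 in HOXD on chromosome 2. Polyadenylated RNA was sequenced in 8 libraries made from SUM159 (Sum159 in the labels), an established human triple-negative breast cancer line with mesenchymal features. The ITGB4-high group (2 libraries) held cells labelled ITGB4 high and grown in petri dishes, and the ITGB4-low group (3 libraries) held clone 1 of the ITGB4 low cells, also grown in dishes. The lung-recovered group (3 libraries) held the same ITGB4 low clone 1 after injection into mice through the tail vein. Bleomycin, a drug that breaks DNA and inflames the lung, was given to those mice through the trachea. Their dissociated lungs were kept in a dish overnight, and tumour cells were then sorted by their tdTomato, a red fluorescent protein.

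ITGB4-low cells are represented by 1 clone, so the clone and its ITGB4 state cannot be told apart. The lung-recovered cells differ from the dish-grown clone by passage through a mouse, by bleomycin, by the overnight culture of a mixed suspension and by the sort, and these cannot be told apart either, since no lung library without bleomycin was analysed here. The labels call the libraries biological replicates and do not name the cultures or animals behind them, so a p-value here weighs a difference against the spread among these samples, which may be technical. Fewer cells expressing a gene and less RNA of it per cell cannot be told apart in bulk RNA.

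HOX genes encode homeodomain transcription factors that give embryonic segments their identity along the head-to-tail axis and along the limbs. Within a cluster the genes lie in the order in which they are expressed along that axis: low paralog numbers mark anterior segments and high numbers mark posterior ones. HOX proteins bind DNA together with the homeodomain proteins PBX, MEIS and PKNOX. Polycomb complexes keep the clusters silent where they are not used, trithorax-group methyltransferases keep them active where they are, and retinoic acid is a classical inducer of the anterior genes. Adult epithelia and tumours derived from them keep part of this positional pattern.

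The libraries held 20.41 to 27.22 M counts each, with scaling factors (TMM) of 0.975 to 1.012. ITGB4, the integrin subunit that names the groups, was at 376.4 and 419.9 CPM (counts per M counts of the library, after TMM scaling) in the ITGB4-high libraries, 5.294 to 9.133 CPM in ITGB4-low and 375.5 to 406.9 CPM in lung-recovered, so the lung-recovered libraries, labelled ITGB4 low, carried the transcript at the level of the ITGB4-high ones. The cells carried the profile of a mesenchymal triple-negative line, with VIM at 4828, 4561 and 4377 CPM in the 3 groups in the order ITGB4-high, ITGB4-low and lung-recovered, and CDH1 and PGR at 0 counts throughout. That order of groups is kept wherever values are listed.

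Of the 39 HOX genes, 17 reached a mean of at least 1 CPM in some group. They included HOXA3, HOXA9 and HOXA10, then HOXB6, HOXB7, HOXB9 and HOXB13, then HOXC4, HOXC6, HOXC8, HOXC9, HOXC10, HOXC11 and HOXC13, and HOXD8 and HOXD13. Another 6 had no count in any library (HOXB1, HOXB2, HOXB4, HOXD3, HOXD4 and HOXD9). A total of 0 over the 8 libraries allows a level of up to 0.0157 CPM, counting error only. The low-count filter left 21 HOX genes for testing, those 17 and HOXA4, HOXA5, HOXA6 and HOXC5, whose group means stayed below 1 CPM. The 12 detected but untested genes had at most 37 counts over all libraries (HOXB8). The HOXC cluster was thus read almost from end to end, while in HOXD only HOXD8 and HOXD13 were at or above 1 CPM and the genes between and beyond them were at or near 0.

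**Figure D1:**
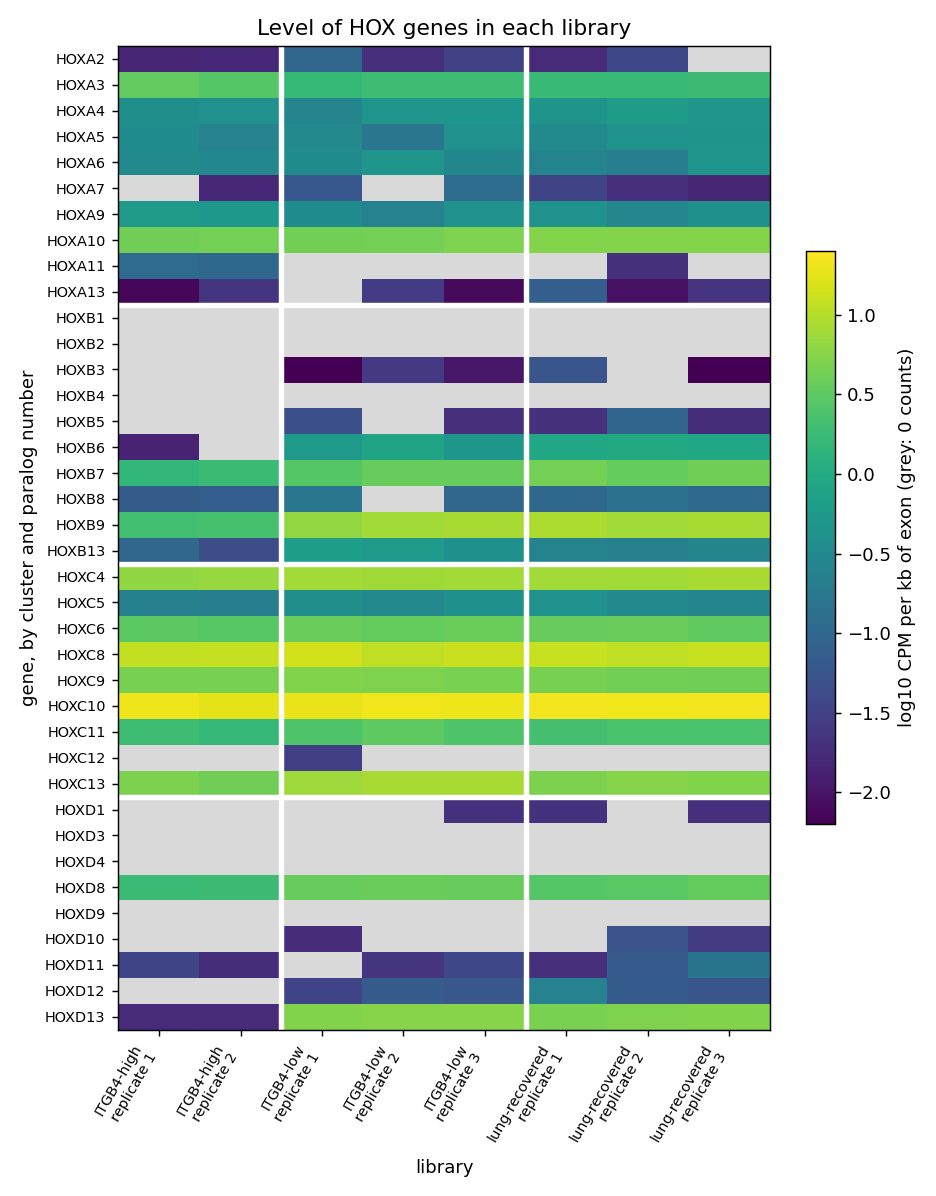
Level of 38 HOX genes (rows, ordered by cluster and paralog number) in each of the 8 libraries (columns), as the log10 of CPM per kb of exon; grey cells had 0 counts and white lines part the clusters and the groups. HOXC is filled from HOXC4 to HOXC13 except HOXC12, and HOXD13 is bright in the 6 libraries of the clone and dark in both ITGB4-high libraries.

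Per kb of exon, the only scale on which different genes are compared here, HOXC10 was the highest HOX gene in each group, at 19.29, 20.13 and 21.27 CPM per kb, and HOXC8 the next, at 12.01, 12.9 and 12.1. HOXC10 and HOXC8 belong to the thoracic-to-lumbar part of the cluster. Below them the order changed between groups: HOXC4 came next in ITGB4-high (6.673 CPM per kb), whereas HOXC13 (8.195), HOXC4 (7.816) and HOXB9 (7.633) lay close together in ITGB4-low. HOXD13 stood sixth in ITGB4-low at 5.47 CPM per kb and was at 0.0171 CPM per kb in ITGB4-high.

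Between ITGB4-low and ITGB4-high, 12 of the 21 tested HOX genes were called (edgeR quasi-likelihood test, adjusted p under 0.05), 11 higher and 1 lower in ITGB4-low. Of all 15220 genes tested, 56.2% were called, 28.6% higher and 27.6% lower, so a share of 57.1% among the HOX genes is near the background and is no result about them. A change of 2-fold or more was called for 6 of the 21, beside 13.1% of all genes, and the libraries did not overlap for 15, beside 68.7%. The median log2 fold change of the 21 was 0.32, with 0.00 over all genes. HOXA6, HOXB6, HOXB13, HOXC5 and HOXD13 passed the filter without any ITGB4-high library at its level, so a rise among them was built into their being tested, and these counts support nothing about the cluster as a whole.

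HOXD13 (ENSG00000128714, hg38 chromosome 2, 176092891 to 176095938), the most posterior HOXD gene and a determinant of digits and of the genital tubercle, showed the largest difference of any tested HOX gene. It had 1 count in each ITGB4-high library (0.0377 and 0.0390 CPM), 11.8, 12.57 and 12.39 CPM in ITGB4-low, and 10.75, 11.44 and 11.73 CPM in lung-recovered. Both ITGB4-high libraries were at the limit of detection, and the 6 libraries of the clone lay within a narrow band far above them. Within that band the lung-recovered libraries were all slightly below the ITGB4-low ones. The count ratio of ITGB4-low to ITGB4-high was 320 (95% counting interval 88.3 to 2647), and that of lung-recovered to ITGB4-high 295.3 (81.49 to 2443). The fitted difference of 8.14 on the log2 scale (SE 0.27, edgeR adjusted p = 4.35e-15) rests on those 2 counts and depends on the prior count of the fit. Between lung-recovered and ITGB4-low, HOXD13 differed by -0.12 (SE 0.09, 95% interval -0.30 to 0.07, edgeR adjusted p = 0.362), so a fall beyond 0.30 or a rise beyond 0.07 on the log2 scale lies outside the interval.

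HOXD8 (ENSG00000175879, chromosome 2, 176129694 to 176132695), a gene of the middle of the cluster, was expressed in every group. It was at 4.753 and 4.832 CPM in ITGB4-high, 9.568, 9.847 and 9.496 in ITGB4-low, and 7.31, 7.802 and 9.212 in lung-recovered. The 3 groups did not overlap. ITGB4-low exceeded ITGB4-high by 1.01 on the log2 scale (SE 0.13, edgeR adjusted p = 1.3e-06), a 2.01-fold difference, and lung-recovered exceeded ITGB4-high by 0.76 (SE 0.13, adjusted p = 5.27e-05). The lung-recovered values lay between the other groups, and their difference from ITGB4-low, -0.24 (interval -0.46 to -0.02), did not pass the test (edgeR adjusted p = 0.0909), although it did without lung-recovered replicate 3 (-0.35, adjusted p = 0.0337).

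The other HOXD genes show how narrow the expressed part of the cluster was. HOXD12, the immediate neighbour of HOXD13, had 0 and 0 counts in ITGB4-high, 1, 2 and 2 in ITGB4-low, and 8, 2 and 2 in lung-recovered, and HOXD11 had 2 and 1, then 0, 1 and 2, then 1, 3 and 9. Neither was tested. HOXD10 and HOXD1 were at or under 0.1418 CPM in each library, and HOXD9, HOXD4 and HOXD3 were at 0.

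The promoter sequences of HOXD13, HOXD12 and HOXD8 are shown because these near neighbours range from nearly absent to abundant in the same libraries. Each runs over the 250 bases before the RefSeq start (GRCh38.p14, plus strand), and capitals mark matches to the motifs searched on both strands, which were the TATA box (TATAAA), the CCAAT box, the E-box (CACGTG), the AP-1 motif (TGANTCA) and the PBX-HOX motif (TGATNNAT). The GENCODE start of HOXD13 used above, 176092891, lies downstream of the RefSeq one. The windows are chr2:176092471-176092720 for HOXD13, chr2:176099545-176099794 for HOXD12 and chr2:176129455-176129704 for HOXD8.
HOXD13: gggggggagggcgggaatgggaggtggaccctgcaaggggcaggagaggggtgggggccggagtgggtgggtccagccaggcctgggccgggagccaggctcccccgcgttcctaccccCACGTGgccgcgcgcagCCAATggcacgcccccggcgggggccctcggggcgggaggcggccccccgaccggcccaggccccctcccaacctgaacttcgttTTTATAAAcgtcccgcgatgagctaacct
HOXD12: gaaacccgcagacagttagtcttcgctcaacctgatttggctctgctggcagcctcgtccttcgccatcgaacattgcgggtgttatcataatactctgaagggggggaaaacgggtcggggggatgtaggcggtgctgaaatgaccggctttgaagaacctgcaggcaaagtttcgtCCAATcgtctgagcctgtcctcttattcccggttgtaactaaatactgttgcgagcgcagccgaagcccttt
HOXD8: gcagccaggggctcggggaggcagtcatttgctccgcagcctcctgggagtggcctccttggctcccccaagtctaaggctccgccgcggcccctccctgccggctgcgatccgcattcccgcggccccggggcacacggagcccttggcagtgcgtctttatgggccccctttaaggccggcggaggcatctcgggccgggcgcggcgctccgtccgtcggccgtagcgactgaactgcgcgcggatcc
The HOXD13 window held TATAAA on opposite strands, overlapping, at 29 and 27 bases before the start, CCAAT at 114 and CACGTG at 131. The HOXD12 window held CCAAT at 72 bases before the start and none of the other motifs, and in the HOXD8 window none of these letters were found. Among 35116 RefSeq promoters of the same length, 10.7% held TATAAA, 32% CCAAT, 6.34% CACGTG, 6.57% TGANTCA and 6.47% TGATNNAT. GC content was 74% for HOXD13, 53.2% for HOXD12 and 72.4% for HOXD8, with 21, 16 and 28 CpG dinucleotides, against medians of 58% and 11 over all promoters. The table holds promoters of 20 of the 39 HOX genes, and those of HOXB6, HOXB7, HOXB9 and HOXB13 are not among them. These matches describe the letters and say nothing of what binds there.

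HOXB7 and HOXB9 were called higher in ITGB4-low than in ITGB4-high, as were HOXB6 and HOXB13, which passed the filter only through the libraries of the clone. HOXB9 (ENSG00000170689, hg38 chromosome 17, 48621159 to 48626356), a gene that patterns the thoracic skeleton and acts redundantly with its paralogs in the mammary gland, was the most abundant. It was at 5.318 and 5.884 CPM in ITGB4-high, 16.8, 20.49 and 21.81 in ITGB4-low, and 23.57, 20.47 and 22.22 in lung-recovered. The ITGB4-high libraries were below all others, and the 2 groups of the clone overlapped. The rise in ITGB4-low was 1.82 on the log2 scale (SE 0.12, edgeR adjusted p = 1.29e-10), a 3.53-fold difference, and in lung-recovered 1.98 over ITGB4-high (SE 0.12, adjusted p = 4.03e-11). Between lung-recovered and ITGB4-low the difference was 0.16 (interval -0.02 to 0.35, edgeR adjusted p = 0.183).

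HOXB7 (ENSG00000260027, chromosome 17, 48607227 to 48633572), which has been linked to growth factor expression and to mesenchymal change when forced in breast cells, moved the same way with a smaller size. Its levels were 2.301 and 2.728 CPM in ITGB4-high, 4.371, 5.627 and 5.593 in ITGB4-low, and 6.848, 5.438 and 6.317 in lung-recovered. Again ITGB4-high stood below the others without overlap. The log2 fold changes were 1.05 in ITGB4-low (SE 0.18, edgeR adjusted p = 4.27e-05) and 1.31 in lung-recovered (SE 0.17, adjusted p = 2.8e-06), both against ITGB4-high, and 0.25 between the groups of the clone (interval -0.04 to 0.54, adjusted p = 0.183).

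HOXB6 (ENSG00000108511, chromosome 17, 48595751 to 48604992) went from near absence to a low level. It had 1 and 0 counts in ITGB4-high, 29, 45 and 33 in ITGB4-low, and 55, 54 and 62 in lung-recovered, the last 2 groups standing at 1.409, 2.11 and 1.328 CPM and at 2.311, 2.553 and 2.331 CPM. The ratio of ITGB4-low to ITGB4-high was 83.61 (95% counting interval 14.69 to 3333) and that of lung-recovered to ITGB4-high 124.7 (22.08 to 4954), each against a single count. The fitted difference of 6.05 for ITGB4-low (SE 0.63, edgeR adjusted p = 9.64e-08) became 8.24 without the ITGB4-high library that held that count (replicate 1) and 5.22 without replicate 2. Lung-recovered libraries were all above the ITGB4-low ones, by 0.57 on the log2 scale (SE 0.22, interval 0.10 to 1.04), which did not pass the test over all genes (edgeR adjusted p = 0.0609) and did without ITGB4-low replicate 2 (0.81, adjusted p = 0.0221). HOXB6 shares 16.6% of its exon bases with HOXB3 on its strand and 16.3% with the antisense HOXB-AS3. HOXB3 had at most 10 counts in a library and HOXB-AS3 had 0.

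HOXB13 (ENSG00000159184, chromosome 17, 48724763 to 48729178), a posterior gene known from prostate development and as a part of an expression ratio studied in breast cancer, rose and then lay lower again. It was at 0.3395 and 0.1559 CPM in ITGB4-high, 2.186, 1.969 and 1.408 in ITGB4-low, and 0.8822, 0.8038 and 0.94 in lung-recovered. No libraries of the 3 groups overlapped, and lung-recovered stood between the others. ITGB4-low exceeded ITGB4-high by 2.86 on the log2 scale (SE 0.38, edgeR adjusted p = 2.82e-06), lung-recovered was below ITGB4-low by -1.06 (SE 0.27, adjusted p = 0.00468), a 2.08-fold difference, and above ITGB4-high by 1.80 (SE 0.43, adjusted p = 0.00161). The ITGB4-high libraries set the size of the first and last of these: without replicate 1 they were 3.51 and 2.45, and without replicate 2 they were 2.41 and 1.35. The remaining HOXB genes with any count, HOXB3, HOXB5 and HOXB8, reached at most 0.4201 CPM in a library.

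**Figure D2:**
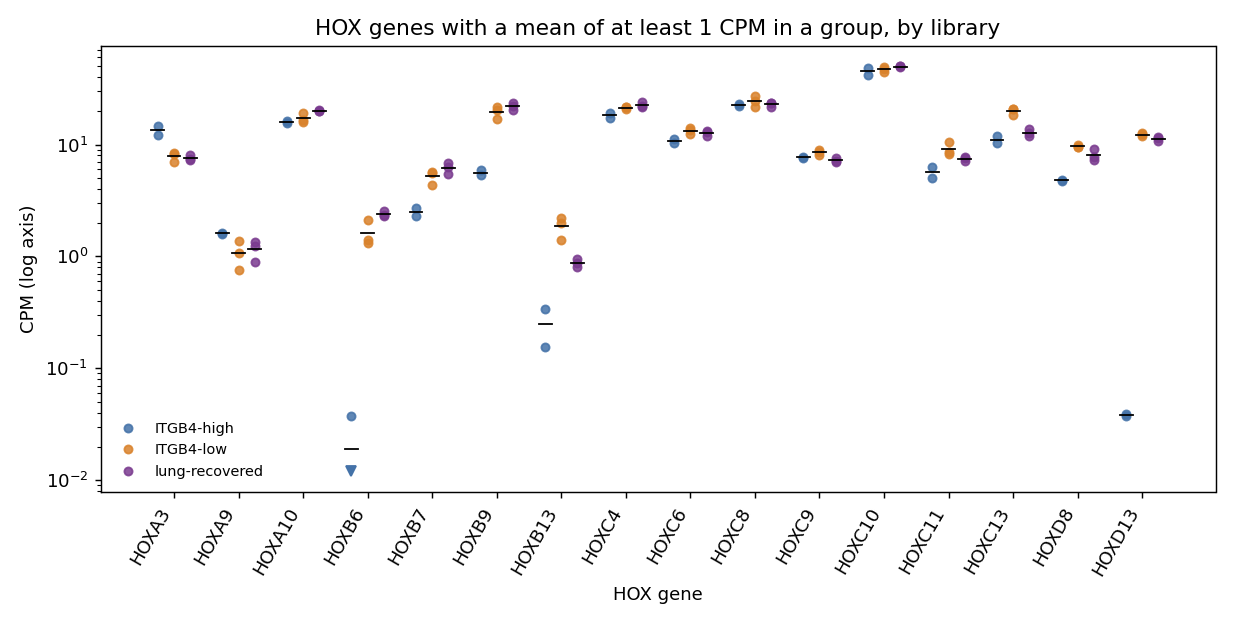
CPM (log axis) of 16 HOX genes with a mean of at least 1 CPM in a group, 1 point per library coloured by group, with a bar at the group mean; the triangle below HOXB6 marks an ITGB4-high library with 0 counts, drawn at the foot of the axis. HOXB6 and HOXD13 are near the limit of detection in ITGB4-high, HOXA3 is the gene whose ITGB4-high points lie clearly above the others, and HOXC10 stays between 41.89 and 50.12 CPM throughout.

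In the HOXA cluster, HOXA10 and HOXA3 were the most abundant genes per kb. HOXA3 (ENSG00000105997, hg38 chromosome 7, 27106184 to 27152581), needed for thymus, parathyroid and other derivatives of the pharyngeal arches, was the 1 HOX gene called lower in ITGB4-low. It was at 14.79 and 12.27 CPM in ITGB4-high, 7.043, 8.346 and 8.288 in ITGB4-low, and 7.268, 7.376 and 8.046 in lung-recovered. The ITGB4-high libraries stood above all 6 of the clone, whose 2 groups overlapped. HOXA3 fell by 0.77 on the log2 scale in ITGB4-low (SE 0.11, edgeR adjusted p = 8.56e-06) and by 0.84 in lung-recovered (SE 0.11, adjusted p = 4.01e-06), both against ITGB4-high, and differed by -0.06 between the groups of the clone (interval -0.30 to 0.17). Of its exon bases 9.24% are shared with genes on the same strand and 15.4% with genes on the other.

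HOXA10, which patterns the uterus and the lumbar skeleton, was the most abundant HOXA gene per kb and the 1 HOX gene called higher in lung-recovered than in ITGB4-low. It was at 15.54 and 16.21 CPM in ITGB4-high, 16.03, 16.41 and 18.95 in ITGB4-low, and 20.25, 19.95 and 20 in lung-recovered. The lung-recovered libraries were above the rest, while the dish-grown groups overlapped. The difference from ITGB4-low was 0.22 (SE 0.08, edgeR adjusted p = 0.0315) and from ITGB4-high 0.34 (SE 0.08, adjusted p = 0.00234). The former call was lost with DESeq2 (adjusted p = 0.066) and on leaving out ITGB4-low replicate 1 or 2 or any lung-recovered library (edgeR adjusted p 0.0572 to 0.113). HOXA10 shares 9.93% of its exon bases with genes on its strand and 16.4% with antisense genes.

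HOXA9, a posterior gene best known in blood progenitors and leukaemia, was at 1.622 and 1.598 CPM in ITGB4-high, 1.069, 0.7502 and 1.368 in ITGB4-low, and 1.344, 0.8984 and 1.241 in lung-recovered. The ITGB4-high libraries were above the others, yet neither difference passed the test (-0.58, interval -1.17 to 0.01, edgeR adjusted p = 0.0886, for ITGB4-low, and -0.46, interval -1.04 to 0.12, adjusted p = 0.179, for lung-recovered). Without ITGB4-low replicate 3 the first of them did pass, with an adjusted p of 0.0373. HOXA4, HOXA5 and HOXA6 stayed between 0.2813 and 1.088 CPM in each library and were not called in any comparison. HOXA11, a limb and uterine gene, had 7 and 6 counts in ITGB4-high, none in ITGB4-low and 1 in 1 lung-recovered library. With ITGB4-low set to a floor of 3 counts over the group, HOXA11 was 5.55-fold lower there, which leaves out the counting error of ITGB4-high. Its counts were too low for the test. HOXA2, HOXA7 and HOXA13 had at most 9 counts in any library.

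The HOXC cluster supplied most of the HOX transcripts, and 4 of its 8 tested genes were called higher in ITGB4-low than in ITGB4-high, none by 2-fold. Of all genes, 28.6% were called higher and 56.2% either way. With 50% of HOXC called either way, the count is no result about this cluster. HOXC10, expressed in the lumbar segments of the embryo, was at 48.05 and 41.89 CPM in ITGB4-high, 44.59, 49.05 and 47.12 in ITGB4-low, and 49.82, 48.8 and 50.12 in lung-recovered. The dish-grown groups overlapped. The difference of ITGB4-low from ITGB4-high was 0.06 on the log2 scale (interval -0.07 to 0.20, edgeR adjusted p = 0.439) and of lung-recovered from ITGB4-high 0.14 (interval 0.01 to 0.27, adjusted p = 0.0734), a difference that passed the test without ITGB4-high replicate 1 (adjusted p = 0.0119).

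HOXC8, a thoracic gene, was at 22.18 and 23.19 CPM in ITGB4-high, 27, 21.66 and 24.46 in ITGB4-low, and 23.48, 21.8 and 23.31 in lung-recovered. HOXC9, its neighbour, was at 7.77 and 7.637, then 8.888, 8.628 and 8.087, then 7.604, 7.187 and 6.918. Neither was called in any of the 3 comparisons, and the nearest to a call was HOXC9 in lung-recovered against ITGB4-low (-0.24, interval -0.45 to -0.02, edgeR adjusted p = 0.0868). For ITGB4-low against ITGB4-high, the intervals were -0.07 to 0.28 for HOXC8 and -0.09 to 0.38 for HOXC9, which leaves out a change of the size of HOXB9.

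Both ends of the expressed HOXC stretch were higher in ITGB4-low. HOXC13 (ENSG00000123364, hg38 chromosome 12, 53938765 to 53946544), a posterior gene with a role in hair and nails, was at 11.92 and 10.25 CPM in ITGB4-high, 18.21, 20.63 and 20.72 in ITGB4-low, and 11.89, 13.71 and 12.6 in lung-recovered. The ITGB4-low libraries were above all others, and lung-recovered overlapped ITGB4-high. HOXC13 rose by 0.84 on the log2 scale in ITGB4-low (SE 0.10, edgeR adjusted p = 4.62e-07), a 1.79-fold difference, and fell by 0.65 from there in lung-recovered (SE 0.09, adjusted p = 8.1e-06). Lung-recovered and ITGB4-high differed by 0.20 (interval -0.02 to 0.41, edgeR adjusted p = 0.118). The antisense gene HOXC13-AS covers 7.1% of its exon bases.

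HOXC11, the next expressed gene of the posterior HOXC end, was at 6.261 and 5.066 CPM in ITGB4-high, 8.5, 10.64 and 8.288 in ITGB4-low, and 7.058, 7.802 and 7.632 in lung-recovered, with no overlap between groups. It was higher in ITGB4-low by 0.69 (SE 0.14, edgeR adjusted p = 2.72e-04). The lung-recovered difference from ITGB4-high, 0.40 (SE 0.14, adjusted p = 0.0211), was lost without ITGB4-high replicate 2 (adjusted p = 0.238) and narrowly without lung-recovered replicate 2 or 3 (0.0532 and 0.0544). Against ITGB4-low, lung-recovered was at -0.28 (interval -0.53 to -0.04, edgeR adjusted p = 0.0797).

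HOXC4 and HOXC6, at the anterior end, changed by less. HOXC4 was at 17.35 and 19.02 CPM in ITGB4-high, 21.47, 20.82 and 21.61 in ITGB4-low, and 21.64, 21.99 and 24.03 in lung-recovered. HOXC6 was at 11.09 and 10.29, then 13.41, 12.52 and 13.92, then 13.02, 13.33 and 11.84. For both genes the ITGB4-high libraries were below those of the clone.

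HOXC4 was higher by 0.23 in ITGB4-low (SE 0.08, edgeR adjusted p = 0.0185) and by 0.31 in lung-recovered (SE 0.08, adjusted p = 0.00223), the former lost without ITGB4-high replicate 1 (adjusted p = 0.198). HOXC6 was higher by 0.31 in ITGB4-low (SE 0.10, edgeR adjusted p = 0.00969), a call lost without ITGB4-high replicate 2 (adjusted p = 0.0874), and by 0.25 in lung-recovered (SE 0.10, adjusted p = 0.0386), a call lost with DESeq2 (adjusted p = 0.0923) and on leaving out either ITGB4-high library, ITGB4-low replicate 2 or lung-recovered replicate 1 or 2 (edgeR adjusted p 0.0524 to 0.215). HOXC4, HOXC5 and HOXC6 share 17.8%, 59.9% and 15.7% of their exon bases with genes on the same strand, so reads of this stretch may be split between them. HOXC5 was between 0.3897 and 0.7982 CPM and was not called in any comparison, and HOXC12 had counts in 1 library alone, 2 in all.

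**Figure D3:**
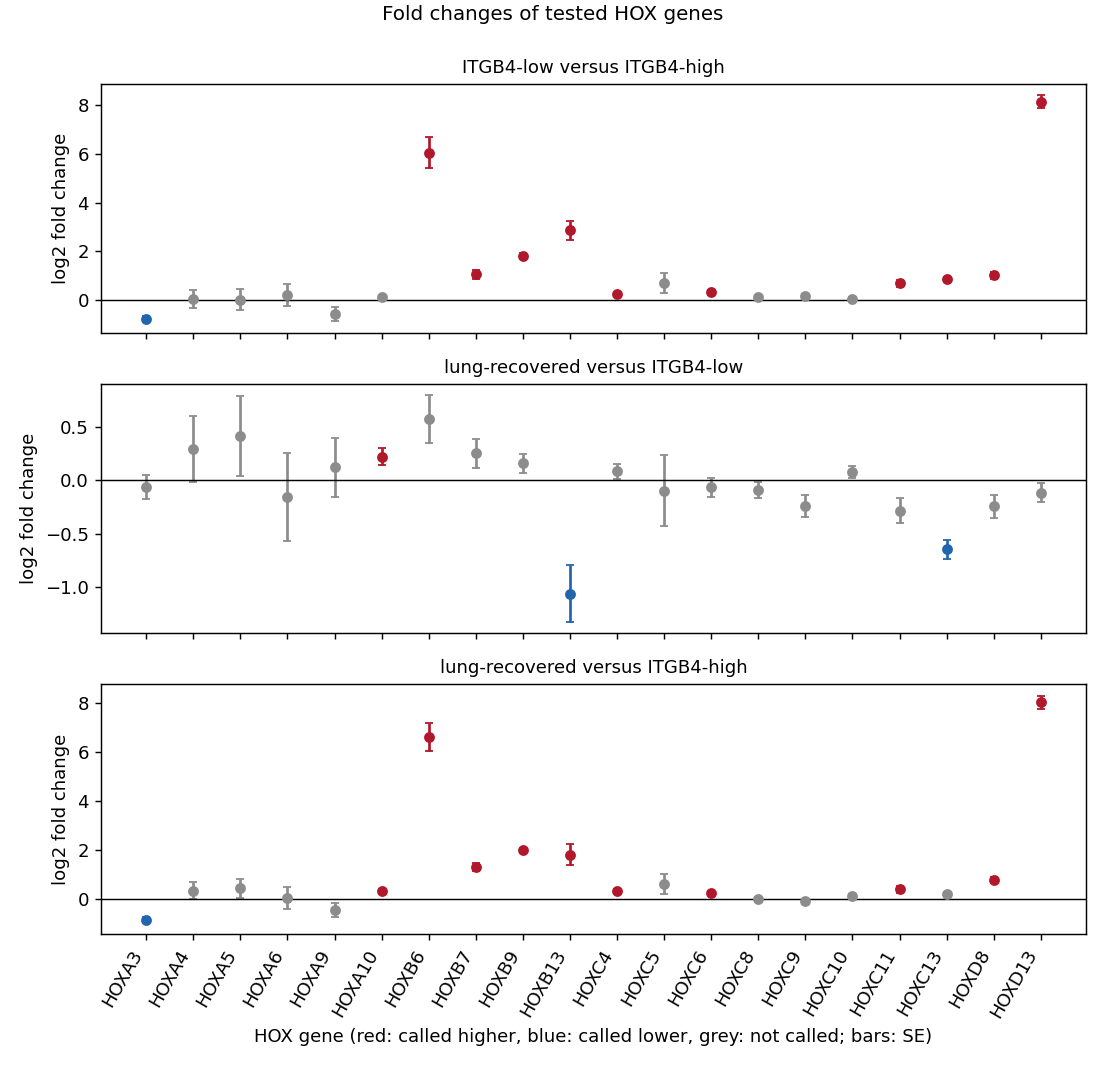
Log2 fold change (points) with its SE (bars) of 20 tested HOX genes in the 3 comparisons, 1 panel each, coloured red where called higher, blue where called lower and grey where not called; the middle panel has a narrower axis. HOXD13 (8.14) and HOXB6 stand far above the rest in both comparisons with ITGB4-high, and in the middle panel HOXB13 (-1.06) and HOXC13 (-0.65) are the genes called lower. The 3 comparisons share libraries, so the panels are not independent.

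In the lung-recovered libraries against dish-grown ITGB4-low, 3 of the 21 tested HOX genes were called, HOXA10 higher and HOXB13 and HOXC13 lower, which is 14.3% beside 30.1% of all genes (14.7% higher, 15.4% lower). Only HOXB13 passed 2-fold, beside 5.51% of all genes, and 9 of the 21 had libraries that did not overlap, beside 43.3%. The median log2 fold change of the 21 was -0.06, with 0.00 over all genes. Against ITGB4-high, the lung-recovered libraries had 12 of 21 called, 11 higher and 1 lower, beside 51.2% of all genes (26.2% higher, 25% lower). Of these 5 passed 2-fold (10.6% of all genes), 17 of the 21 did not overlap (66.8%), and the median was 0.34, with 0.01 over all genes. The share called, 57.1%, is near the background and is no result about the HOX genes. HOXB6, HOXB13 and HOXD13, among the genes past 2-fold, had no ITGB4-high library at the filter level. A rise in them was built into their being tested, so these counts support nothing about the cluster as a whole. Each pair of comparisons shares a group of libraries, so the counts are set side by side and no agreement between them is drawn.

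The paralogs of group 13, the most posterior HOX genes, differed among themselves across the 3 groups. Their mean levels per kb of exon were 4.574, 8.195 and 5.255 CPM for HOXC13, 0.0171, 5.47 and 5.049 for HOXD13, and 0.0714, 0.535 and 0.253 for HOXB13. HOXB13, HOXC13 and HOXD13 were each called higher in ITGB4-low than in ITGB4-high. For HOXB13 and HOXD13, which had no ITGB4-high library at the filter level, a rise was built into their being tested, so no shared trait of the group is read from this. HOXB13 and HOXC13 were called lower in lung-recovered than in ITGB4-low, and HOXD13 was not, though the difference between the genes was not tested. HOXA13, the fourth paralog, had 9 counts or fewer per library and was not tested.

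Summed over the 39 genes, HOX output was 69.43 and 66.19 CPM per kb in ITGB4-high, 88.97, 92.29 and 93.9 in ITGB4-low, and 90.16, 88.2 and 91.35 in lung-recovered. The clone was above ITGB4-high in each library, and its 2 groups overlapped. HOXC took 77.1 and 76.6% of the sum in ITGB4-high, 65.3 to 68.5% in ITGB4-low and 63.4 to 64.6% in lung-recovered. Its share was lower in the clone while its own sum was higher. That sum was 53.55 and 50.67 CPM per kb in ITGB4-high, 60.91 to 61.33 in ITGB4-low and 56.95 to 57.93 in lung-recovered.

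The other clusters shared out the remainder differently. HOXB took 5.4 and 6.32% in ITGB4-high, 12.1 to 14.1% in ITGB4-low and 14.7 to 16.6% in lung-recovered, and HOXD 2.68 and 2.83%, then 9.86 to 10.2%, then 8.73 to 9.86%. HOXA took 14.8 and 14.3%, then 9.37 to 10.8%, then 11 to 11.4%. The HOXA sums themselves overlapped between groups, at 10.27 and 9.453 CPM per kb, then 8.34 to 10.15, then 9.884 to 10.37. By position along the axis, paralog groups 9 to 13 took 56.4 and 53.9% in ITGB4-high, 58.1 to 61.6% in ITGB4-low and 58.4 to 59.4% in lung-recovered, whereas groups 1 to 3 took 6.27 and 5.19%, then 3.01 to 3.52%, then 3.23 to 3.45%. These sums are descriptions and carry no test.

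**Figure D4:**
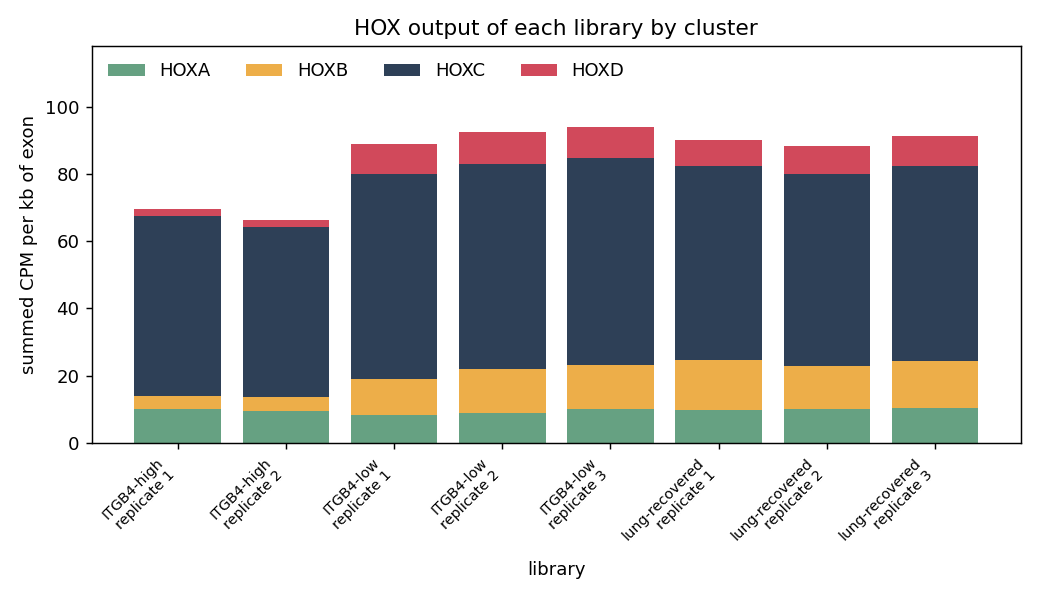
Summed HOX level of each library in CPM per kb of exon, stacked by cluster, for the 8 libraries. The ITGB4-high bars reach 69.43 and 66.19, those of the clone 88.2 to 93.9, and the HOXB and HOXD layers are the ones that are thin in ITGB4-high.

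Of 18 noncoding RNAs transcribed within the clusters, 9 were tested. HAGLR, which is transcribed in HOXD between HOXD1 and HOXD3, was called in each comparison: it had 4 and 2 counts in ITGB4-high, 32, 31 and 34 in ITGB4-low, and 14, 18 and 18 in lung-recovered. The groups did not overlap, with lung-recovered in the middle. Its log2 differences were 3.60 for ITGB4-low over ITGB4-high (SE 0.44, edgeR adjusted p = 9.26e-07), -1.05 for lung-recovered against ITGB4-low (SE 0.27, adjusted p = 0.00622) and 2.55 for lung-recovered over ITGB4-high (SE 0.50, adjusted p = 2.67e-04). HAGLR passed the filter only through the libraries of the clone, so a rise over ITGB4-high was built into its being tested. HOXC13-AS, antisense to HOXC13, was at 1.69, 2.477 and 1.686 CPM on average, higher in ITGB4-low by 0.55 (SE 0.22, adjusted p = 0.0382) and lower in lung-recovered than there by -0.56 (SE 0.20, adjusted p = 0.0391).

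HOTAIRM1, a noncoding RNA of the HOXA cluster, rose by 0.28 in ITGB4-low (SE 0.11, edgeR adjusted p = 0.0428) and by 0.34 in lung-recovered (SE 0.11, adjusted p = 0.0137), both against ITGB4-high. HOTAIR, the HOXC transcript known for its link to Polycomb and to breast cancer metastasis, was at 1.90, 2.12 and 2.05 CPM and was not called (0.16 for ITGB4-low against ITGB4-high, adjusted p = 0.566). The strand setting of the counting is not given in the sources used here, so reads of HOXC13 and HOXC13-AS cannot be told apart with certainty.

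Other protein-coding genes near the clusters give the level against which a shift of a whole region would show. Within 5 Mb of the cluster ends, the median log2 fold change of ITGB4-low against ITGB4-high was -0.03 for HOXA (35 tested genes, 8 called higher and 11 lower), -0.05 for HOXB (103 genes, 27 and 40), -0.02 for HOXC (150 genes, 44 and 54) and 0.08 for HOXD (41 genes, 16 and 5). Over all genes 28.6% were called higher and 27.6% lower. The nearest tested protein-coding genes on either side of HOXD were both higher in ITGB4-low. They were LNPK, an endoplasmic reticulum protein, by 1.17 (edgeR adjusted p = 2.92e-12), and MTX2, a mitochondrial outer membrane protein, by 0.27 (adjusted p = 6.44e-04). In lung-recovered against ITGB4-low, LNPK fell by 0.76 (edgeR adjusted p = 6.75e-10), while HOXD13 was at -0.12 and HOXD8 at -0.24, neither of them called.

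**Figure D5:**
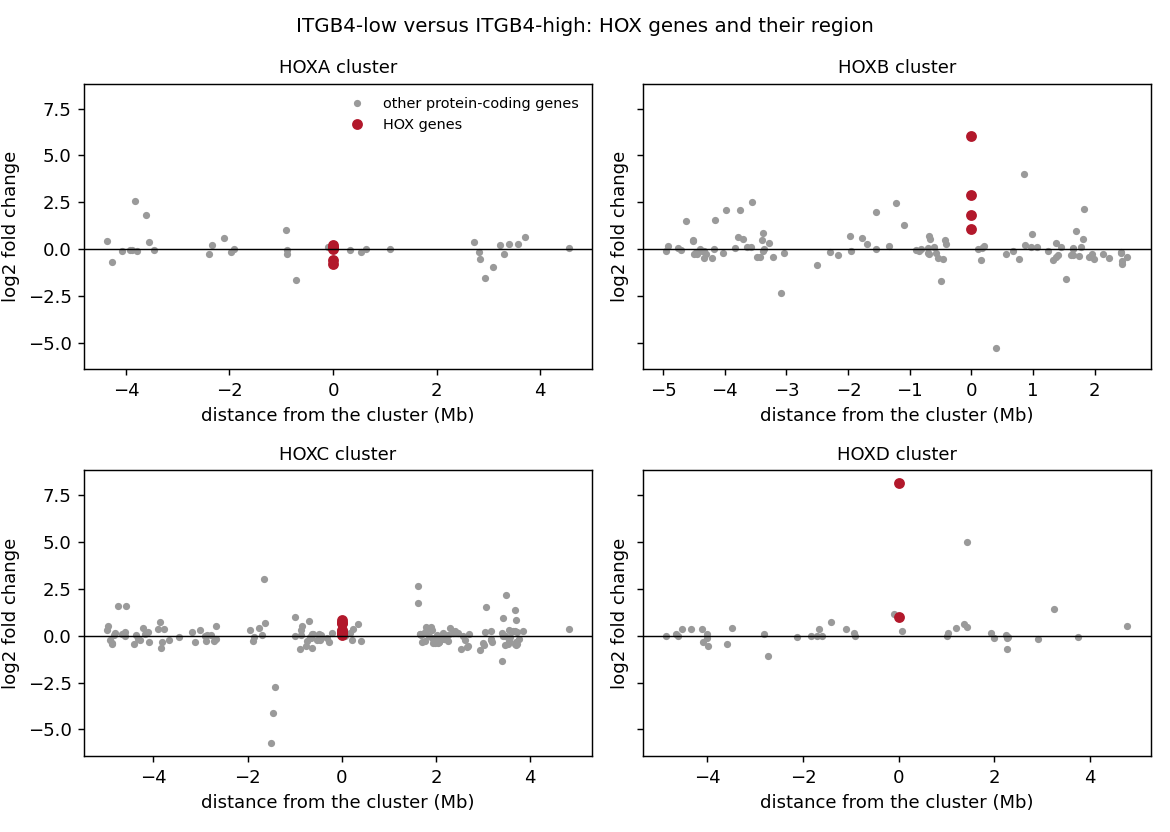
Log2 fold change of ITGB4-low against ITGB4-high for tested protein-coding genes within 5 Mb of each HOX cluster (grey, at their distance in Mb from the nearer cluster end) and for HOX genes (red, all drawn at 0). Neighbours scatter around 0 in each panel, with single genes far from it, and the HOXB and HOXD points lie above most of their neighbours, HOXB6, HOXB13 and HOXD13 having passed the filter only through libraries of the clone.

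The DNA-binding partners of HOX proteins were all above the low-count filter. Of 9 cofactor genes, 5 were higher and 3 lower in ITGB4-low than in ITGB4-high, beside 28.6% and 27.6% of all genes. PKNOX2, a MEIS-like homeodomain cofactor, was at 98.41 and 93.87 CPM in ITGB4-high, 524.6, 509.2 and 521.6 in ITGB4-low, and 429.7, 426.5 and 428.4 in lung-recovered. The groups did not overlap, the rise in ITGB4-low was 2.43 on the log2 scale (SE 0.05, edgeR adjusted p = 1.83e-18), and lung-recovered fell by 0.28 from there (SE 0.04, adjusted p = 1.54e-05). MEIS3 (0.87), MEIS2 (0.53), MEIS1 (0.50) and PKNOX1 (0.19) also rose in ITGB4-low, and PBX3 (-0.61) and PBX2 (-0.47) were among those that fell.

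In lung-recovered against ITGB4-low, 4 of the 9 cofactors were lower (among them MEIS3 -0.33, PKNOX2 -0.28 and MEIS2 -0.26) and none was higher. Of all genes, 15.4% were called lower and 14.7% higher there. Against ITGB4-high, lung-recovered had 5 cofactors higher and 3 lower, beside 26.2% and 25% of all genes. The median over the 9 was 0.19 in each comparison with ITGB4-high, beside 0.00 and 0.01 over all genes.

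The products of Polycomb genes silence HOX clusters. Of 35, all tested, 5 were higher and 19 lower in ITGB4-low than in ITGB4-high, beside 28.6% and 27.6% of all genes, with a median of -0.18 beside 0.00 over all genes. The largest falls were those of PHC1 (-0.71), CBX2 (-0.68) and PCGF2 (-0.62), all parts of Polycomb complex 1, and the largest rises those of RYBP (0.46), the methyltransferase EZH2 (0.37) and its partner JARID2 (0.33). In lung-recovered against ITGB4-low, 5 rose, PHC2 (0.39) and CBX2 (0.35) among them, and 8 fell, with a median of 0.02. The shares of all genes there were 14.7% higher and 15.4% lower. Lung-recovered against ITGB4-high had 6 higher and 16 lower (median -0.17), beside 26.2% and 25% of all genes.

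Of 37 trithorax and other HOX-activating genes, 33 were tested, and 4 were higher and 17 lower in ITGB4-low than in ITGB4-high (median -0.16). That is 63.6% called either way, beside 56.2% of all genes (28.6% higher, 27.6% lower). The largest falls were in MLLT6 (-0.94), AFF1 (-0.56) and the methyltransferase ASH1L (-0.53), and the cohesin subunit RAD21 (0.23) and the demethylase KDM6B (0.20) led the rises. In lung-recovered against ITGB4-low, 3 were higher and 9 lower, among them the methyltransferases KMT2A (-0.27) and KMT2C (-0.41), with a median of -0.05. Of all genes, 14.7% were called higher and 15.4% lower in that comparison. For KMT2A and for KMT2C the libraries of these groups overlapped. Against ITGB4-high, 2 were higher and 21 lower in lung-recovered (median -0.22), beside 26.2% and 25% of all genes.

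In the retinoic acid pathway 12 of 20 genes were tested, with 4 higher and 7 lower in ITGB4-low than in ITGB4-high (median -0.26). Among all genes 28.6% were called higher and 27.6% lower. ALDH1A1, which makes retinoic acid, had 2088 and 2311 counts in ITGB4-high and at most 2 counts in any library of the clone. ALDH1A2, of the same family, went the other way in ITGB4-low. It had 1 and 4 counts in ITGB4-high, 25, 13 and 25 in ITGB4-low, and 3, 6 and 3 in lung-recovered. Its log2 difference between ITGB4-low and ITGB4-high was 3.23 (SE 0.59, edgeR adjusted p = 1.05e-04). ALDH1A2 passed the filter only through the ITGB4-low libraries, so a rise there was built into its being tested. CYP26B1, which degrades retinoic acid, was at 2.263 and 1.753 CPM in ITGB4-high, 0.1457, 0.5158 and 0.2012 in ITGB4-low, and 2.563, 3.121 and 3.008 in lung-recovered. This was a fall of 2.80 (SE 0.36, edgeR adjusted p = 1.49e-06) and then a difference of 3.32 (SE 0.32, adjusted p = 7.57e-08). The receptor RARG rose by 0.77 in ITGB4-low, and the reductase DHRS3 fell by 1.29. Lung-recovered against ITGB4-low had 5 higher and 2 lower (median 0.10), beside 14.7% and 15.4% of all genes. Against ITGB4-high it had 3 higher and 7 lower (median -0.18), beside 26.2% and 25%.

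Genes reported elsewhere as HOX targets were listed as a further group, 23 of 28 tested. In ITGB4-low 13 were higher and 5 lower than in ITGB4-high (median 0.50), in lung-recovered 6 were higher and 10 lower than in ITGB4-low (median -0.07), and 12 were higher and 5 lower than in ITGB4-high (median 0.57). NCAM1, an adhesion molecule, was among the largest rises in ITGB4-low at 3.65 (SE 0.07, edgeR adjusted p = 1.99e-18), and the urokinase gene PLAU among the falls at -4.95 (SE 0.33, adjusted p = 1.29e-10). PLAU had no ITGB4-low library at the filter level, so a fall there was built into its being tested. The background shares of 56.2, 30.1 and 51.2% called apply to these lists too, and nothing particular to them is read from the counts.

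Marker genes of host cells that a lung sort could hold were counted in the same libraries. Lymphocyte markers summed to at most 0.201 CPM and erythroid markers to at most 0.0402 CPM in each library, with HBB, HBA1 and HBA2 at 0. The 10 lung epithelium markers summed to 1.81 to 1.91 CPM in ITGB4-high, 2.09 to 2.45 in ITGB4-low and 2.22 to 2.81 in lung-recovered. SFTPA1, SFTPD, SCGB1A1 and SCGB3A2 were at 0. These sums hide opposite changes of their members. NKX2-1 averaged 0.0195, 1.04 and 0.0671 CPM, LAMP3 0.8788, 0.3982 and 1.6 CPM, and AGER 0.9045, 0.7668 and 0.787 CPM. In lung-recovered against ITGB4-low, LAMP3 was called higher (1.98, edgeR adjusted p = 6.38e-05) and NKX2-1 lower (-3.79, adjusted p = 1.38e-05). AGER was not called. The source of the LAMP3 reads was not tested. Endothelial markers were at 3.62 to 4, 3.74 to 6.14 and 2.9 to 3.55 CPM, with CLDN5 at 0, and the macrophage and myeloid markers at 3.62 to 4.64, 6.12 to 6.46 and 7.48 to 8.38 CPM, with TYROBP at 0.

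The 10 markers of lung mesenchyme, itself a tissue that expresses HOX genes, summed to 27.6 to 27.7 CPM in ITGB4-high, 32.8 to 35.2 in ITGB4-low and 58.1 to 59.5 in lung-recovered. In lung-recovered against ITGB4-low, 1 of the 5 tested was called higher, PDGFRA (9.37, 3.51 and 36.5 CPM), and 2 were called lower, COL13A1 (0.248, 8.45 and 3.28 CPM) and TBX5 (2.97, 0.488 and 0.165 CPM). The median of the 5 was -0.235 on the log2 scale, and of all genes 14.7% were called higher and 15.4% lower. TBX4 was at 0, and 5 of the 10 stayed below 1 CPM in each library. Smooth muscle markers were at 23 to 25.6, 31.2 to 43.4 and 20.2 to 20.9 CPM. Mouse reads can count on a human HOX gene only where the sequences are alike, and the part of such reads in the values of HOXA10, HOXB13 and HOXC13 in lung-recovered was not tested.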

How the data were processed

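The 8 libraries were made from polyadenylated RNA with dUTP to keep the strand, per the labels' protocols. The authors deposited unnormalised counts per gene, which are whole numbers. STAR 2.7.1a and hg38 are named per the submitters' processing notes. The counting program, its strand setting and the annotation release were not given in the sources used here, so counts of overlapping or antisense genes are uncertain. Of 58336 identifiers, 58216 matched GENCODE release 29, which gave symbols, exon lengths and 1-based hg38 coordinates. The table held 0 columns of other series.

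Sample titles gave each library its group and replicate number. A single edgeR 4.0.16 model (R 4.3.3) with a term per group was fitted to all libraries. The filter filterByExpr kept 15220 genes, library sizes were scaled by TMM, and the 3 differences between groups were tested by the quasi-likelihood F test with Benjamini-Hochberg adjustment over all genes tested. Calls have an adjusted p under 0.05. The SE is the log2 fold change over the square root of F, and 95% intervals use the t distribution of the fit. Where a group had 1 to 3 counts the ratio has an exact binomial counting interval, which covers counting error only. Against 0 counts the ratio is to a floor of 3 counts over the group and leaves out the counting error of the other group. Libraries of a group differed by more than sampling noise (chi-square over its degrees of freedom 1.57 to 6.13). The fit was tested on simulated data.

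The HOX genes, the gene lists and the tests were chosen with earlier results of these data known. HOX genes with a mean of at least 1 CPM in a group are given in every library, except that results of some genes are not reported here. Of each list, up to 3 called genes with the largest rise and 3 with the largest fall per comparison could be named. The cofactors, the noncoding RNAs of the clusters and the nearest tested neighbours of a cluster could be named too. Alternatives were DESeq2 1.42.0, limma-voom (limma 3.58.1), other scalings and filters, fits of only the groups compared, a replicate block and leaving out each library. No lung-recovered control without bleomycin and no promoter or protein sequence beyond those printed were used here.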

Additional observations from a re-analysis of the deposited data

How the results depend on the processing

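Across the alternatives, the calls of HOXD13, HOXB6, HOXB7, HOXB9, HOXB13, HOXA3 and HOXD8 against ITGB4-high held, as did those of HOXB13 and HOXC13 between lung-recovered and ITGB4-low. The alternatives refit the same libraries. HOXD13, HOXB6 and HOXB13 passed the filter of the main fit only through the clone, so no support is drawn from their calls against ITGB4-high holding. The HOX genes called higher in lung-recovered than in ITGB4-low, 1 in the main fit, numbered 0 with DESeq2 and 2 with limma-voom, without the low-count filter and with only the 2 groups compared, where HOXB6 was added. The HOX genes called lower numbered 2 without the low-count filter both in ITGB4-low and in lung-recovered against ITGB4-high, where HOXA11 was added, and HOXB3 and HOXD12, at most 10 counts in a library, were then called higher in lung-recovered than in ITGB4-high. The cause was not tested.

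Leaving out each library in turn gave 9 to 11 HOX genes higher and 1 to 2 lower in ITGB4-low against ITGB4-high, 0 to 1 higher and 2 to 3 lower in lung-recovered against ITGB4-low, and 8 to 11 higher and 1 lower in lung-recovered against ITGB4-high. The second lower gene, without ITGB4-low replicate 3, was HOXA9.

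Replicate numbers did not pair the libraries: same-numbered libraries of different groups had deviations correlated at -0.126 to 0.0407. With a replicate block, 10 HOX genes were called in ITGB4-low against ITGB4-high (9 higher and 1 lower, HOXC4 among those lost), 3 in lung-recovered against ITGB4-low (1 higher and 2 lower), and 11 in lung-recovered against ITGB4-high (10 higher and 1 lower, without HOXC6).

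Signs turned only for genes that were not called. For ITGB4-low against ITGB4-high, HOXA5 was at -0.00078 with DESeq2, -0.055 with limma-voom and -0.20 with the replicate block, and over the left-out libraries HOXA5 ran from -0.34 to 0.29, HOXA4 from -0.084 to 0.25, HOXA6 from -0.030 to 0.38 and HOXC10 from -0.042 to 0.16. For lung-recovered against ITGB4-low, HOXA6 ran from -0.57 to 0.072, HOXA9 from -0.069 to 0.36 and HOXC5 from -0.32 to 0.063. For lung-recovered against ITGB4-high, HOXA6 was at -0.018 with limma-voom and -0.043 with the replicate block and ran from -0.36 to 0.24, and HOXC8 ran from -0.024 to 0.046. Genes below about 1 CPM are limited by their counts. Rescaling moved the median over all genes by at most 0.024.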

Other observations

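Homeobox genes outside the HOX clusters were listed as a comparison group, and 57 of 100 were tested. In ITGB4-low 19 were higher and 16 lower than in ITGB4-high, in lung-recovered 7 were higher and 15 lower than in ITGB4-low, and against ITGB4-high 19 were higher and 19 lower. The shares called were 61.4, 38.6 and 66.7%, beside 56.2, 30.1 and 51.2% of all genes. The list medians were 0.11, -0.10 and 0.04 on the log2 scale. The lung-patterning factor NKX2-1 was among the largest rises in ITGB4-low, from 0.0195 to 1.04 CPM on average, and was at 0.0671 CPM in lung-recovered. ALX4, a limb and craniofacial factor, had no count in any dish-grown library and a mean of 1.29 CPM in lung-recovered. LHX1, a kidney and head organiser gene, was at 0.0761, 0.211 and 1.53 CPM, and CUX2, a neuronal factor, at 27.8, 20.3 and 6.44 CPM.

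IRX2, an Iroquois factor expressed in the mammary epithelium, was chosen from that list for its high CPM, not scaled to exon length, after its values were seen. It was at 7657 and 8055 CPM in ITGB4-high, 6290, 5785 and 5784 in ITGB4-low, and 5237, 5037 and 5185 in lung-recovered. The groups did not overlap, and the differences were -0.40 for ITGB4-low against ITGB4-high (SE 0.05, edgeR adjusted p = 1.11e-06) and -0.21 for lung-recovered against ITGB4-low (SE 0.05, adjusted p = 0.00136).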
